A study of Mus musculus with 4 samples.

Results

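The genes described here are 40 mouse germline genes, which act in germ cells and are commonly listed as silenced in somatic tissues by promoter DNA methylation. They were chosen by name and found on the arrays through the RefSeq transcript each probe was assigned to. Of the 40 genes, 39 had at least 1 such probe and 46 probes in all, among 20660 genes with a named RefSeq probe. Piwil4 had no probe under its listed transcripts and was not analysed here. The arrays measured mRNA, so the methylation of these genes was not measured in the files used here, and whether they were silent in this tissue was read from their signals.

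Each of the 4 arrays carried 1 pool of whole-brain RNA from C57BL/6J pups killed on postnatal day 1, so each group was 1 array (n = 1). The Sham male and Sham female pools came from offspring of 5 dams that received vehicle by intratracheal spray. The TiO2-H male and TiO2-H female pools came from offspring of 6 dams that received 100 ug of titanium dioxide nanoparticles per mouse by the same route. From each dam 2 offspring were pooled, the dose volume was 25 uL in both exposures, and the sources give the exposure day as gestational day 10.5 in one place and 14 in another. Both Sham arrays lay in one row of the slide and both TiO2-H arrays in the other, so slide row and exposure cannot be told apart. The X-linked RNA Xist and the Y-linked mRNAs Ddx3y, Eif2s3y and Uty went against the sex labels of both TiO2-H arrays. The Sham female array also read 142.5 for Ddx3y and 419.5 for Eif2s3y, both well above background, where the Sham male array read 1418 and 3519. The groups below are therefore named as labelled, and each comparison was also made across the sex labels.

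In somatic cells of the mouse embryo, a part of the germline promoters is first repressed by chromatin complexes that carry the factors E2F6, MGA and MAX, and is then methylated by DNMT3B and kept methylated by DNMT1. In primordial germ cells this methylation is erased and germline genes are switched on. Loss of DNA methylation in somatic cells is known to switch on a part of these genes, among them Dazl, Mael, Sycp3 and Tex101, which makes the class a common readout of promoter demethylation.

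Fewer germline genes than other genes were detected. A probe was taken as detected where the scanner software marked its spot as well above background. Such a probe was found for 12 of 39 germline genes (30.8%) in Sham male, against 72.8% of all genes. The count was 14 (35.9%, against 72.3%) on the Sham female array, 17 (43.6%, against 74.4%) on the TiO2-H male array and 16 (41.0%, against 75.6%) on the TiO2-H female array. The share of all probes marked well above background was 55.7%, 54.9%, 58.2% and 60.0% on the same arrays, higher on both TiO2-H arrays than on both Sham arrays. Of the germline genes, 12 were detected on all 4 arrays by 1 probe (30.8%, against 70.8% of all genes), 18 on at least 1 array (against 78.3%), and 21 on none. Neuron markers (8 of 8) and radial glia and astrocyte markers (8 of 8) were detected on every array, and the summed neuron signal, relative to the 75th percentile of each array, ranged from 521 to 542. Of 5 gonad somatic markers with a probe, 3 (Cyp17a1, Foxl2 and Sox9) were detected on every array and Amh on none. The detection of these 3 in whole-brain RNA is not read as a sign of gonad cells. Star was detected on the TiO2-H arrays only. It read 32.4 and 29.5 on the Sham arrays and 43.9 and 29.3 on the TiO2-H arrays (male, female). The TiO2-H female signal of Star lay below both Sham signals and was detected through the lower limit of that array (23.3). In whole-brain RNA, fewer cells expressing a gene and less mRNA per cell cannot be told apart.

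**Figure D1:**
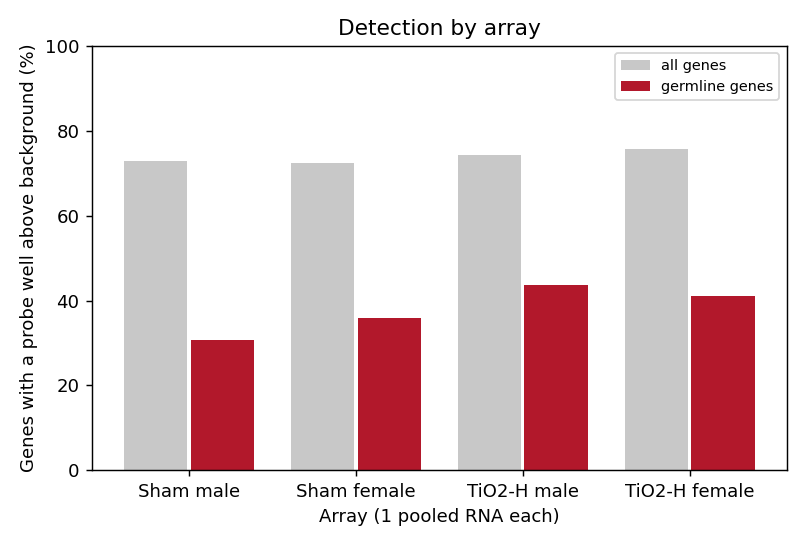
Percent of genes with at least 1 probe well above background (vertical axis) on each of the 4 arrays (1 pooled RNA each), for 39 germline genes (red bars) and all 20660 genes (grey bars). Germline genes lie between 30.8% and 43.6%, all genes between 72.3% and 75.6%, and both are higher on the TiO2-H arrays.

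Promoter windows of 300 bases, from 250 before to 50 after the start, were taken from RefSeq on GRCm38.p6 for 36 of the 39 genes, with the window richest in CpG kept for each gene. Methylation acts on the CpG dinucleotide, printed here in capitals, and each window reads 5′ to 3′ on the strand of its gene. Nanos3 and Rec8 are shown as the detected germline genes with the brightest probes, Ddx4, Stk31 and Smc1b as those with the most CpG, and Hormad1 for its signal on 1 array, chosen after its values were seen.
Nanos3, chr8:84176503-84176802, strand -, 3 CpG: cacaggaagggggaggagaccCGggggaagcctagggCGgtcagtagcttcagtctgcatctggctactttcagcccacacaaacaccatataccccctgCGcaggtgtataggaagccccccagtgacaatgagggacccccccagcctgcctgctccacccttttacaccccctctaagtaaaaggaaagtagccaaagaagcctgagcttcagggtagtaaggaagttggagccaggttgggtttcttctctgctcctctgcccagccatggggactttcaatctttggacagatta
Rec8, chr14:55617916-55618215, strand +, 18 CpG: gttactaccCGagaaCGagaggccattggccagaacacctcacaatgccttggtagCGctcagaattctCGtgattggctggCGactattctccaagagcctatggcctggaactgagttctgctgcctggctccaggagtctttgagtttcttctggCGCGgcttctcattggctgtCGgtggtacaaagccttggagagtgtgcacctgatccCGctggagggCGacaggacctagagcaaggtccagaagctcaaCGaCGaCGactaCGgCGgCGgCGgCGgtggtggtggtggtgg
Ddx4, chr13:112652261-112652560, strand -, 38 CpG: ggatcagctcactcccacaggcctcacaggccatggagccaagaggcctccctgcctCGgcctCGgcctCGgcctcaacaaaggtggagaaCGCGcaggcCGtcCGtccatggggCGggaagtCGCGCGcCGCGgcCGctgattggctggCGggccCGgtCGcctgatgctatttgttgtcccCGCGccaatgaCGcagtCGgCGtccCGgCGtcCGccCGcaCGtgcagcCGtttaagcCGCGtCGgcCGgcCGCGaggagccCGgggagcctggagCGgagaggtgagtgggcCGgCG
Stk31, chr6:49395289-49395588, strand +, 29 CpG: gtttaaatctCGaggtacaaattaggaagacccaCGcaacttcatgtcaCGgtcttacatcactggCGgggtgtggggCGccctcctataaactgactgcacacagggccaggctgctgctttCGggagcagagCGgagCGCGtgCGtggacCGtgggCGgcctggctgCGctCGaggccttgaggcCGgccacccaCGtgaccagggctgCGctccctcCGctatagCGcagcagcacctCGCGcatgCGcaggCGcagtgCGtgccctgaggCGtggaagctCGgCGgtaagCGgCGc
Smc1b, chr15:85131908-85132207, strand -, 29 CpG: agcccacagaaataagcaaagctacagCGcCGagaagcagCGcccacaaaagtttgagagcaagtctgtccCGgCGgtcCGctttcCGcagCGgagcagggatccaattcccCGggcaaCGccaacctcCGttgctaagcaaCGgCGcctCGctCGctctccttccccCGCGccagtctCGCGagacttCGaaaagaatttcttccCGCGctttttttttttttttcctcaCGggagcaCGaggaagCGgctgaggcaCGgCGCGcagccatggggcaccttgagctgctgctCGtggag
Hormad1, chr3:95559427-95559726, strand +, 24 CpG: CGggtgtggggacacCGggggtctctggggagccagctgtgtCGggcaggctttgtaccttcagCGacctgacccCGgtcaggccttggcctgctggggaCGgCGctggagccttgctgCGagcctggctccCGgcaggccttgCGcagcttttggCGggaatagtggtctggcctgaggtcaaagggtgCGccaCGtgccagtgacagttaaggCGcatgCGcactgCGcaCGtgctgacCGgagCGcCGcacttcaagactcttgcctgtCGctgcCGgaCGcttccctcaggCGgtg

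CpG number and detection did not follow each other in the printed windows. Ddx4, with the most CpG, was detected on 3 arrays, Stk31 and Smc1b held 29 each and were detected on none and on all 4, and Nanos3, with 3 CpG, was the brightest. Over the 19 undetected germline genes with a window the median was 17 CpG (range 1 to 29). Over all 3559 undetected genes it was 3, and over all 11627 genes detected on all 4 arrays it was 21. The undetected germline genes therefore had promoter CpG counts nearer to those of detected genes than of other undetected genes. The 11 germline genes detected on all 4 arrays had a median of 12 CpG, with Nanos2 at 0, Nanos3 and Prm2 at 3 and Smc1b at 29. The genes were listed as methylated at their promoters, so their CpG content is not independent of the choice, and no test was made.

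**Figure D2:**
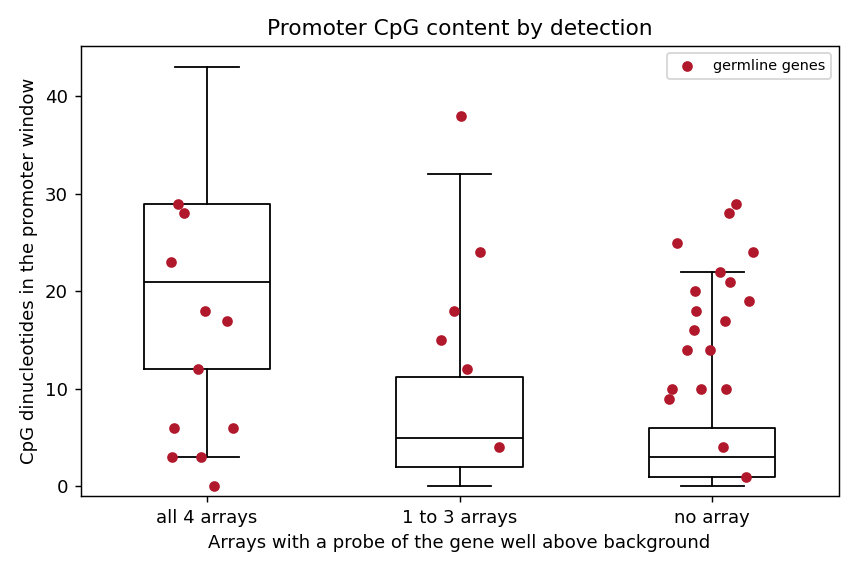
Number of CpG dinucleotides in the promoter window of each gene (vertical axis) by the number of arrays on which the gene was well above background. Boxes give the quartiles and median of all genes and whiskers the range from the 5th to the 95th percentile; red points are germline genes, whose median among genes detected on no array is 17 against 3 for all such genes.

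The letters of 2 motifs were searched on both strands of these windows. CACGTG, the E-box that MGA and MAX bind, was present in 9 of 19 undetected germline genes (47.4%), in 3 of 6 detected on some arrays (50.0%) and in 1 of 11 detected on all 4 arrays (9.09%). Over all genes it was present in 4.8%, 6.4% and 9.86% of windows in the same 3 states, and in 8.51% of all 16374. GCGGGA, a core of E2F sites, was present in 3 of 19 (15.8%), 4 of 6 (66.7%) and 3 of 11 (27.3%) germline genes in those states. Over all genes it was present in 8.74%, 14.7% and 36.1%, and in 28.6% of all windows. Both motifs contain a CpG and can share a letter at their ends. Mael, Slc25a31 and Sycp1 among the undetected genes, and Ddx4, Hormad1 and Sycp3 among those detected on some arrays, held both. A match of letters is a description of the window only.

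No germline gene was raised on both TiO2-H arrays. A gene was called so where a probe was well above background on both TiO2-H arrays and the lower of their signals, scaled to the 75th percentile of each array, was at least 1.5 times the higher Sham signal. Of the 18 germline genes detected on any array 0 met this rule, where 19 of 16169 genes (0.118%) did. The mirror rule called 0 of 18 lowered on both, where 0.111% of all genes were called. At shares this low few genes of any list of 18 would be called, so the count of 0 lies near the background. In the limma fit of both TiO2-H arrays against both Sham arrays over 35625 probes, 0 probes of any gene passed an adjusted p of 0.05 (background 0%), and 4968 (13.9%) had an unadjusted p under 0.05. Of 21 detected germline probes 3 (of Pgk2, Tuba3a and Nanos2) had an unadjusted p under 0.05, and their lowest adjusted p by limma was 0.351. The Pgk2 probe passed the filter only through the TiO2-H arrays, and its Sham female signal was set to the detection limit. Its place in this count is therefore not independent of the filter and is not read as a difference. With 2 arrays on each side, an exact two-sided permutation test cannot go below 0.33. The 2 arrays of an exposure were pools of the labelled sexes from the same dams. The standard errors and p by limma therefore rest on the spread between such pools and not between independent litters.

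Single arrays stood out more often. On the TiO2-H male array, 3 of 18 germline genes (Hormad1, Dpep3 and Smc1b) were at least 1.5 times every other array, where 1.42% of all genes were. Hormad1 and Dpep3 were among the 18 only through this array, and a gene detected on 1 array only can be called only there. Of the 16169 genes behind that share 14636 were detected on all 4 arrays, against 12 of the 18 germline genes, so the shares are not of like genes. On the Sham female array it was 1 gene (Sycp3), where 1.64% of all genes were. The count was 0 on the Sham male array (1.6% of all genes) and 0 on the TiO2-H female array (1.13%).

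By labelled sex, TiO2-H male over Sham male gave 3 of 17 germline genes at or above 1.5-fold, the same 3, against 2.87% of all genes, and 0 at or below 0.67-fold, against 2.47%. Of these 3, Hormad1 and Dpep3 were tested only through the TiO2-H male array. TiO2-H female over Sham female gave 0 of 16 above, against 2.22%, and 1 below, Sycp3, against 2.62%. Between the Sham arrays, with no exposure on either side, Ddx4 and Sycp3 passed 1.5-fold upward in the female, 2 of 14 genes against 2.38%, and 0 passed downward against 2.31%. Both Ddx4 and Sycp3 were tested there only through the Sham female array. Between the TiO2-H arrays 0 of 18 were higher in the female (1.74% of all genes) and 3 were lower (3.05%). The 3 were Hormad1, Dpep3 and Smc1b, of which Hormad1 and Dpep3 were tested only through the TiO2-H male array. The median log2 ratio of the germline genes well above background on both arrays was -0.0058 (12 genes) for the arrays labelled male and -0.063 (14 genes) for those labelled female, against -0.0006 and 0.012 over all genes. Taken across the sex labels, the TiO2-H male array gave the same 3 genes above 1.5-fold against Sham female and Sycp3 below, and TiO2-H female against Sham male gave 0. There too, Hormad1, Dpep3 and Sycp3 were tested only through the array on which they were high.

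**Figure D3:**
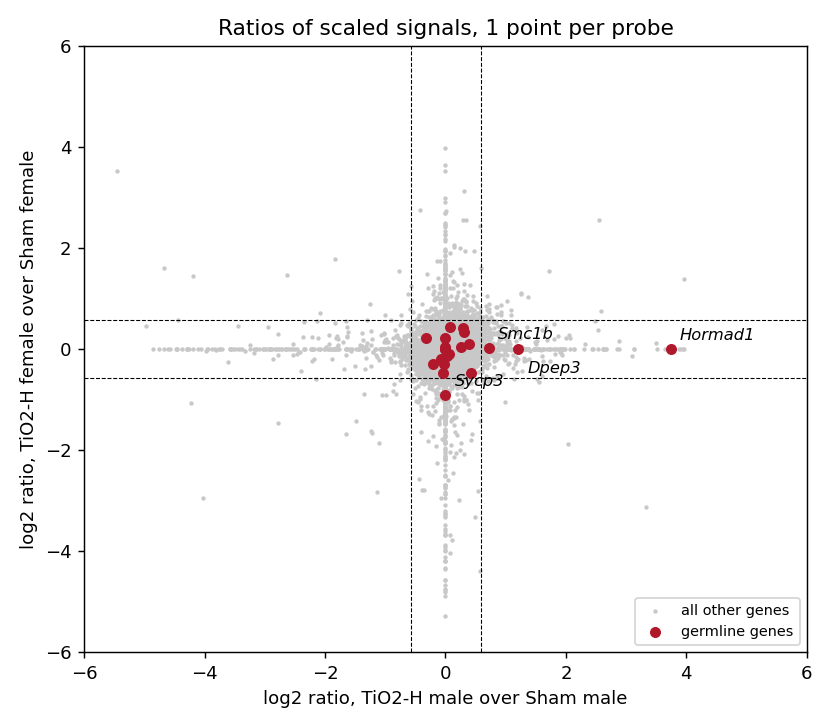
log2 ratio of scaled signals for TiO2-H male over Sham male (horizontal axis) and TiO2-H female over Sham female (vertical axis), 1 point per probe well above background on at least 1 array, germline genes in red and other genes in grey, with broken lines at 1.5-fold and 0.67-fold. Here every signal below the highest of the 4 detection limits was set to that limit, so pairs below it lie at 0; no germline probe lies past 1.5-fold on both axes, and Hormad1, Dpep3 and Smc1b lie past it on the horizontal axis only.

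Hormad1 gave the largest single difference. It encodes a HORMA-domain protein of the meiotic chromosome axis that is needed for synapsis, and cancer cells are known to switch it on. Its probe (NM_026489) read 6.46 on the Sham male, 6.72 on the Sham female, 461 on the TiO2-H male and 4.92 on the TiO2-H female array. Only the TiO2-H male spot was well above background, with an error of 56.8 by the software, so the signal there was at least 14.2-fold that of Sham male and at least 13.3-fold that of every other array. The other probe of the same transcript read 6.98, 7.34, 29.1 and 5.38 and was well above background on no array. It was also highest on the TiO2-H male array, the one array on which the software marked it as significantly above zero. Each probe was a single spot. Across the 2 TiO2-H and 2 Sham arrays the Hormad1 log2 difference by limma was 1.63 with a standard error of 1.69. The probe entered the fit only through the TiO2-H male array, with every other signal set to its detection limit, so no p is given for it.

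Signals on 1 array occurred in the Sham pools too. On the TiO2-H male array 5 genes, Hormad1 among them, exceeded every other array by at least the fold of Hormad1, and 1 gene did on the TiO2-H female array. On the Sham male array 27 genes did, and on the Sham female array 22. Adam2, a sperm surface gene of a list of other spermatid and sperm genes, named here after its values were seen, read 583 on the Sham female array and 7.84, 8.49 and 5.91 on the Sham male, TiO2-H male and TiO2-H female arrays, at least 19.5-fold above the next. That list and those of other piRNA and meiotic genes held 53 genes with a probe, of which 31 were detected on at least 1 array. Of all 16169 detected genes, 1.6% (male) and 1.64% (female) were high on that Sham array only. For the TiO2-H arrays these shares were 1.42% (male) and 1.13% (female). Of the 31 detected genes in the lists, 5 were high on 1 array only. They were Adam2, Meiob (at least 2.17-fold) and Prdm9 (2.09-fold) on the Sham female array, and Zpbp (2.45-fold) and Tssk6 (at least 2.4-fold) on the TiO2-H male array, the array of Hormad1, Dpep3 and Smc1b. Adam2 and Meiob were among the 31 only through the Sham female array, so they could be called only there.

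The other 2 genes of the TiO2-H male array were dimmer. Dpep3, a testis membrane dipeptidase (NM_027960), read 8.57, 9.0, 80.0 and 6.44 on the Sham (male, female) and TiO2-H (male, female) arrays, with an error of 11.3 at 80.0. It was well above background on the TiO2-H male array alone, at least 2.46-fold above Sham male and at least 2.31-fold above every other array. Smc1b, the meiotic cohesin subunit (NM_080470), read 42.5, 44.1, 74.9 and 48.7 and was detected on all 4 arrays. Its ratio was 1.65 in the arrays labelled male and 1.01 in those labelled female, and the TiO2-H female signal lay within its software error of 6.86 of both Sham signals. With another background correction, normexp on the median signals, Hormad1 alone of the 3 stayed at 1.5 times every other array.

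**Figure D4:**
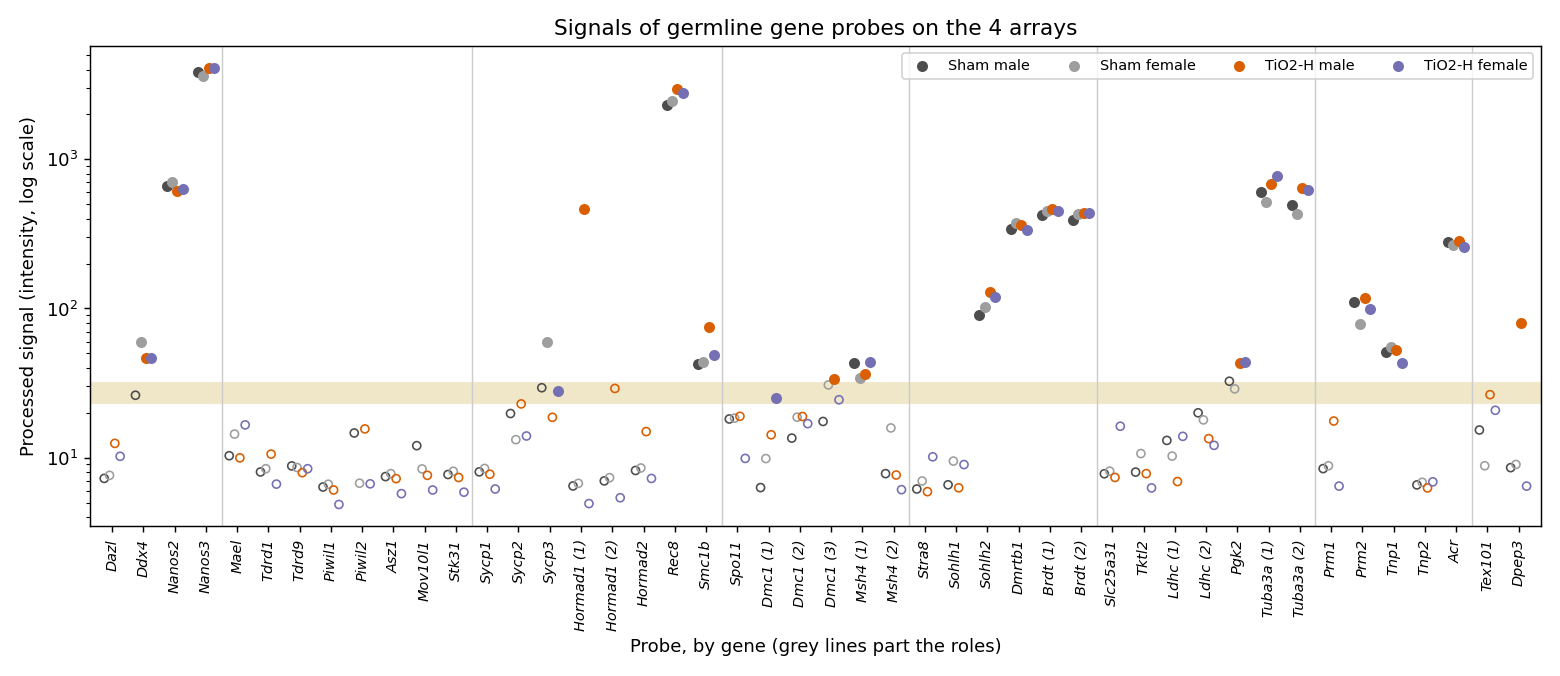
Processed signal (intensity, log scale) of the 46 germline probes on the 4 arrays, ordered by role, with several probes of a gene numbered. Filled points were well above background and open points were not, and the shaded band spans the lowest detected signals of the 4 arrays (23.3 to 31.7); Hormad1 and Dpep3 have 1 filled point each, on the TiO2-H male array, while Nanos3 and Rec8 have all 4 between 2331 and 4111.

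Among the genes of germ cell identity, 3 of 4 were detected. Nanos3, which protects migrating primordial germ cells, was the brightest germline probe, at 3853, 3638, 4111 and 4077 on the Sham (male, female) and TiO2-H (male, female) arrays. Scaled to each array these differed by at most 1.04-fold. Nanos2, its relative in male germ cells, read 658, 707, 610 and 634, a ratio of 0.866 and 0.819 in the arrays labelled male and female (log2 difference -0.25, standard error 0.068, unadjusted p = 0.0309, adjusted p = 0.351 by limma). Both TiO2-H signals of Nanos2 lay below both Sham signals, and neither ratio reached 0.67. Ddx4, the germ cell RNA helicase also called Vasa, read 26.2 on Sham male, below detection, and 59.3, 46.4 and 46.5 on the Sham female and the TiO2-H arrays (male, female). The Sham female signal was the highest, so the 2 exposures overlapped. Dazl, an RNA-binding regulator of germ cell translation, read 7.26 to 12.5 and was not detected.

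The transposon-defence genes were the most uniformly dark group. All 8 with a probe, namely Mael, Tdrd1, Tdrd9, Piwil1, Piwil2, Asz1, Mov10l1 and Stk31, lay between 4.85 and 16.6 and were well above background on no array. Most of these proteins make or use piRNAs, the small RNAs that guide silencing of transposons in germ cells. Of 13 other genes of the same pathway from a separate list, 7 were detected on all 4 arrays and 0 were called on both TiO2-H arrays in either direction.

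In the group of synapsis and chromosome axis genes, 4 of 7 were detected. Rec8, the meiotic kleisin of cohesin, was bright, at 2331, 2457, 2976 and 2784 on the Sham (male, female) and TiO2-H (male, female) arrays. Both TiO2-H signals were above both Sham signals, but by 1.19-fold and 1.04-fold after scaling. Sycp3, of the lateral element, read 29.4, 59.9, 18.6 and 28.0 and was detected on both female-labelled arrays. The detected 28.0 of TiO2-H female lay below the undetected 29.4 of Sham male and rested on the lower detection limit of that array (23.3, against 30.4 and 31.7 on the Sham arrays). Its Sham female signal was at least 2.0-fold above every other array and the TiO2-H female over Sham female ratio was 0.427. The sex-linked RNAs do not place these 2 arrays in the same sex. Sycp1, Sycp2 and Hormad2 stayed between 6.16 and 22.9. Of 20 other meiotic genes with a probe, 13 were detected on each array and 0 were called on both TiO2-H arrays.

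Recombination genes were near the limit of detection. Msh4, which stabilizes crossover intermediates, read 43.0, 34.4, 36.6 and 44.0 on the Sham (male, female) and TiO2-H (male, female) arrays, with the exposures overlapping. Its other probe read 7.81, 15.8, 7.65 and 6.10 and was not detected. Dmc1, the meiotic strand-exchange protein, had 3 probes. One passed detection on the TiO2-H female array alone (6.30, 9.86, 14.2 and 25.2 in the same order) and one on the TiO2-H male array alone (17.5, 30.7, 33.8 and 24.4), while the last read 13.5, 18.7, 18.9 and 16.9 and passed on none. The signal of 25.2 lay below the lowest detected signal of either Sham array (30.4 and 31.7), so it would not have counted as detected there. With 1 limit of 31.7 for all arrays, an alternative chosen after seeing the data, the count of germline genes detected on the TiO2-H female array was 14 in place of 16, and the other 3 counts did not change. Spo11, which makes the breaks that start recombination, read 9.88 to 18.9 and was not detected.

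Of the transcription factors and chromatin readers, Brdt, Dmrtb1 and Sohlh2 were detected on all 4 arrays. Brdt, the testis-specific bromodomain protein, read 426, 451, 463 and 449 with one probe and 390, 427, 436 and 439 with the other on the Sham (male, female) and TiO2-H (male, female) arrays, so its 4 scaled signals lay within 1.12-fold for each. Dmrtb1 read 344, 374, 361 and 334 in the same order. After scaling, both TiO2-H signals of Dmrtb1 lay below both Sham signals, the lower Sham over the higher TiO2-H being 1.02. Sohlh2, a helix-loop-helix factor of early spermatogonia and oocytes, read 90.8 and 102 on the Sham male and female arrays and 128 and 120 on the TiO2-H male and female arrays. The ratios were 1.32 and 1.08, with no overlap between exposures and neither past 1.5-fold. Stra8 and Sohlh1 read 5.91 to 10.13 and were not detected.

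Pgk2 was detected on both TiO2-H arrays and on neither Sham array. This retrogene encodes the phosphoglycerate kinase of sperm (NM_031190), and its probe read 32.5 on Sham male, 28.9 on Sham female, 43.1 on TiO2-H male and 44.0 on TiO2-H female. The software errors were 8.85, 9.16, 8.96 and 7.67, so the ranges that these errors give around the Sham and TiO2-H signals overlapped. The ratio of the lower TiO2-H to the higher Sham signal was 1.24, below the threshold. The probe entered the limma fit only through its TiO2-H signals, and the fit set the Sham female signal to its detection limit, so no p is given for it. Tuba3a, an alpha-tubulin of testis whose sequence is nearly that of Tuba3b, read 603, 520, 683 and 770 with one probe and 493, 428, 647 and 622 with the other on the Sham (male, female) and TiO2-H (male, female) arrays. Both TiO2-H signals were above both Sham signals for each probe, the lower over the higher being 1.06 and 1.17. Signals of the 2 paralogs cannot be told apart. Ldhc, Slc25a31 and Tktl2 read 6.27 to 19.98 and were not detected.

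Of the 5 sperm head and chromatin packaging genes 3 were detected on all 4 arrays. Acr, the acrosomal protease, read 280.5, 267, 284 and 256.5 in the same order. Prm2, a protamine, read 111, 78.5, 118 and 99.5, and Tnp1, a transition protein, read 51.3, 55.2, 53.1 and 43.4 on the Sham (male, female) and TiO2-H (male, female) arrays. The unscaled signals of the exposures overlapped for all 3. After scaling, both TiO2-H signals of Acr and of Tnp1 lay below both Sham signals. The lower Sham over the higher TiO2-H signal was 1.03 for each, and Prm2 still overlapped. Their partners Prm1 and Tnp2, which lie beside Prm2 on chromosome 16, read 6.26 to 17.6 and were not detected, and Tex101, a testis surface protein, read 8.82 to 26.4. Of 20 other spermatid and sperm genes, 5, 6, 6 and 8 were detected on the same arrays and 0 were called on both TiO2-H arrays.

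The general writers, readers and erasers of silencing were all detected. Of 19 writers, readers and erasers of DNA methylation and members of the E2F6 and heterochromatin complexes, 19 were detected on all 4 arrays, against 70.8% of all genes. The rule above called 1 of them, Uhrf1, lowered on both TiO2-H arrays, where 0.111% of all detected genes were called. That call rested on the dimmer of its 2 probes. Dnmt3l, a cofactor of the methyltransferases that set new methylation, was high on the Sham male array only, at 162.7 against 58.3 on Sham female and 54.0 and 48.4 on the TiO2-H arrays (male, female). Uhrf1 brings DNMT1 to replicated DNA. The probe for NM_001111079 read 82.6 and 59.1 on the Sham male and female arrays and 27.2 and 23.8 on the TiO2-H male and female arrays, the last 2 below detection, a ratio of at most 0.333 and 0.368. The probe for NM_010931 read 1096, 1035, 1325 and 1262 in the same order, a ratio of 1.13 and 1.11, so the 2 probes of Uhrf1 did not move alike.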

How the data were processed

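Whole-brain RNA of 4 pools was hybridised by the authors to 4 one-colour Agilent mouse arrays, 1 per group. The deposited intensity values are the processed signals that Agilent Feature Extraction 10.10.1.1 wrote per spot after background subtraction, and the deposited value table held the same numbers. Each of 55681 probes was averaged over its spots after removal of 138 to 181 outlier spots per array, and 0 spots were saturated. Signals were divided by the 75th percentile of each array (795.3 to 870.7) and taken to log2. Undetected signals lower than the dimmest detected one of their array (23.3 to 31.7) were raised to it, so ratios to it are bounds and probes dim on both sides were given no ratio. Between spots of probes present 10 times, the SD of log2 signal was 0.099 to 0.11 for detected and 0.32 to 0.45 for undetected probes; a spot error does not cover the spread between animals, which pooling removed. Probes were named through RefSeq transcripts of GRCm38.p6, which named 98.0% of 21887 accessions. Folds of 1.5 and 0.67 were counted per gene over any of its probes. Both exposures were compared by limma 3.58.1 (lmFit, eBayes, Benjamini-Hochberg over all probes detected on at least 1 array) in R 4.3.3. Calls and fit were tested on simulated probes detected on all 4 arrays and changed on both TiO2-H arrays. That test does not cover undetected signals or signals high on 1 array only. The genes, lists and tests were chosen with earlier results of these data known. Other settings were tried, with effects given at the end. All probes of a germline gene were used; genes detected on any array are given with the signal of each array for every probe, the others by range.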

Additional observations from a re-analysis of the deposited data

How the results depend on the processing

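The counts of 0 germline genes raised and 0 lowered on both TiO2-H arrays held under every alternative run, as did the count of 0 germline probes with an adjusted p under 0.05 in limma, where 3 to 6 had an unadjusted p under 0.05 and the lowest germline adjusted p ranged from 0.147 (without the TiO2-H female array) to 0.53. Without each array in turn that count was 0 to 0, with the lone array of an exposure assumed to vary like the other. With normexp on the median signals 1 germline gene (Hormad1) was high on the TiO2-H male array only and 0 on the Sham female array. With no floor on dim signals 5 genes passed a fold threshold in the arrays labelled male (Ddx4 and Dmc1 added) and 2 in those labelled female (Dmc1 added), and 1 (Dmc1) was high on the TiO2-H female array only, since ratios to undetected signals then counted in full. Pairing across the sex labels left 0 for TiO2-H female. Asking for detection on both arrays left 1 (Smc1b) in the arrays labelled male. With the software's weaker mark, of a signal significantly above zero, 24, 25, 28 and 30 germline genes were detected on the Sham (male, female) and TiO2-H (male, female) arrays. With at least 2 detected probes asked for, 2 were detected on each, but only 6 germline genes had more than 1 probe, so that count could not pass 6. The share of all genes was not computed for these settings. A single detection limit for all arrays, chosen after seeing the data, gave 12, 14, 17 and 14. Of all alternative values, 74 stayed within 1.5-fold of the reported count and 15 did not. Many of the 74 were counts of 0 that stayed 0, and a change from 3 to 2 was also within the limit, so this tally says little about stability. Probes named by gene symbol were not run, since the files used here pair none. With sex as a block in limma, as labelled or crossed within TiO2-H, 0 germline probes passed and the lowest germline adjusted p was 0.492 and 0.53. A replicate block could not be fitted, since each group was 1 array. With 1 pool per group, the spread between litters was not measured, and signals near 23.3 to 31.7 intensity units lie at the limit of detection.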
